A study of Homo sapiens with 12 samples.

Results

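Transcripts of 10 regulators and target genes of the integrated stress response were followed across 12 mRNA sequencing libraries of clear cell renal cell carcinoma (ccRCC) lines. The genes were taken by symbol from the deposited count table, in which they are 10 of 45478 rows: the transcription factors ATF4, DDIT3 (which encodes CHOP), ATF3, ATF5 and CEBPB, and the target genes CHAC1, TRIB3, ASNS, SESN2 and PPP1R15A. All 10 were found, and all 10 passed the filter on low counts. Each of the 4 groups had 3 libraries. The parental lines were 786-O and A498, both established from human ccRCC, and each had a sunitinib-resistant line made from it. Resistant 786-O was selected with 4 μM sunitinib, a tyrosine kinase inhibitor that acts on VEGF receptors, and resistant A498 with 2 μM, with the drug raised in steps over 4 months or more than 20 passages. All groups were grown in DMEM with high glucose, glutamine and foetal bovine serum. The labels give treatment as none for every library, and every sample title holds the letters veh. The study kept the cells in sunitinib during selection, while whether sunitinib was in the medium at harvest is not given in the sources used here. Each resistant line is 1 selected culture. The labels do not say that replicates came from separate cultures, so p-values measure the spread between these libraries only. In what follows, 786-O and A498 with no further word are the parental lines. Each group also has a batch label of its own, so batch and group cannot be told apart.

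The integrated stress response is a shared reply to amino acid shortage, misfolded protein in the endoplasmic reticulum, viral RNA, heme deficiency and mitochondrial faults. Kinases that sense these conditions phosphorylate the translation initiation factor eIF2, which lowers protein synthesis in general and favours translation of the ATF4 mRNA. The ATF4 protein then switches on genes for amino acid supply and for further bZIP transcription factors such as CHOP, and PPP1R15A (GADD34) closes the loop by bringing a phosphatase to eIF2. Only mRNA was measured here. ATF4 is controlled to a large degree at translation, so its mRNA level is not a reading of its protein.

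ATF4 binds, with a C/EBP partner, to short elements that join part of a C/EBP site to part of a CRE site. The letters TGATGNAA (both strands) were searched for in the 250 bases before each annotated RefSeq start, and were held by 3.14% of 35116 promoters. The palindrome TGACGTCA, the full CRE, was held by 1.65%. Of the 10 genes, ATF3, CHAC1 and ASNS held the first motif, and PPP1R15A held the second. The shares are per promoter, while a gene can have several promoters and was counted if any held the motif. The windows below are shown because they are the places in which the stress genes carry the letters of either motif. They are read 5′ to 3′ on the strand of the gene (RefSeq, GRCh38.p14), with the motif in capitals. In CHAC1 the capitals are the reverse complement of the motif.
ATF3, chr1:212565205-212565234, plus strand, motif 191 bases before the start: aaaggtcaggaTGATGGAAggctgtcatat
CHAC1, chr15:40953251-40953280, plus strand, motif 209 bases before the start: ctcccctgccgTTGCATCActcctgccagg
ASNS, chr7:97872458-97872487, minus strand, motif 68 bases before the start: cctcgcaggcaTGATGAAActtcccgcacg
PPP1R15A, chr19:48872352-48872381, plus strand, motif 58 bases before the start: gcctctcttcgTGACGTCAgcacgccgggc
The ATF3 window lies outside the ATF3 gene in GENCODE v44, and overlap with other genes was not checked. The other windows lie in an exon of their own gene there, since that annotation holds starts further upstream. A match of letters is not a binding site, and binding was not measured.

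Library totals ran from 20042519 to 47972092 counts. Levels are given in CPM, the counts scaled to the TMM-normalised library size. Of 8 markers of kidney tubule and ccRCC, PAX8 among them, 7 reached 1 CPM in every group, and CA9 did so only in A498, at 1.29 CPM. T cell markers summed to at most 0.590 CPM and endothelial markers to at most 0.765 CPM in any library. Fibroblast markers summed to between 6.46 and 62.0 CPM, highest in A498. The libraries labelled resistant A498 stood nearer to 786-O than to A498. Across genes, their median correlation was 0.870 with the A498 libraries. It was 0.951 with 786-O, and 0.982 with resistant 786-O. The 62 genes found in A498 but not in 786-O were at a median of 0.362% of their A498 level in these libraries, and the 33 found in 786-O but not in A498 were at 94.6% of their 786-O level. The resistant A498 libraries are therefore compared below with both 786-O and A498, their labelled parent. Replicate 2 of resistant 786-O also stood apart, with a root mean square deviation from its group mean of 0.20 on the log2 scale against 0.11 and 0.12 in the other resistant 786-O libraries.

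Parental 786-O had the lowest mean level of 8 of the 10 genes and the highest ATF4. In resistant 786-O, 7 genes rose above parental 786-O and 1, ATF4, fell (edgeR's quasi-likelihood test, Benjamini-Hochberg adjusted p under 0.05 over 19929 genes). The share of all genes called was 68.5% in this comparison, with 35.0% higher and 33.5% lower, or 42.9% and 25.8% with scaling by library size alone. With the trend of fold change on GC content and gene length removed, ATF5, CEBPB and SESN2 lost their call and TRIB3 was called lower (-0.27). In that setting 31.9% of all genes were higher and 35.9% lower. In the resistant A498 libraries, 8 genes were above 786-O, where 63.6% of all genes were called, 31.6% higher and 32.1% lower, or 39.8% and 23.8% with library size alone. None of the 10 was called lower there, with 0 at an unadjusted edgeR p under 0.05 and 0 by DESeq2. Other settings did call ATF4 or PPP1R15A lower. PPP1R15A was called with the compared groups alone (-0.092 on the log2 scale), ATF4 with the study's test on CPM (-0.098), and both with the study's test on raw counts. Both were also called without resistant 786-O replicate 2, at -0.099 and -0.13, although that library belongs to neither group: it bears on the filter, the scaling and the shared estimate of the spread. The median log2 fold change of the 10 genes was 0.45 in resistant 786-O and 0.62 in resistant A498 against 786-O, beside 0.03 and 0.00 over all genes. These comparisons share the 786-O libraries.

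**Figure D1:**
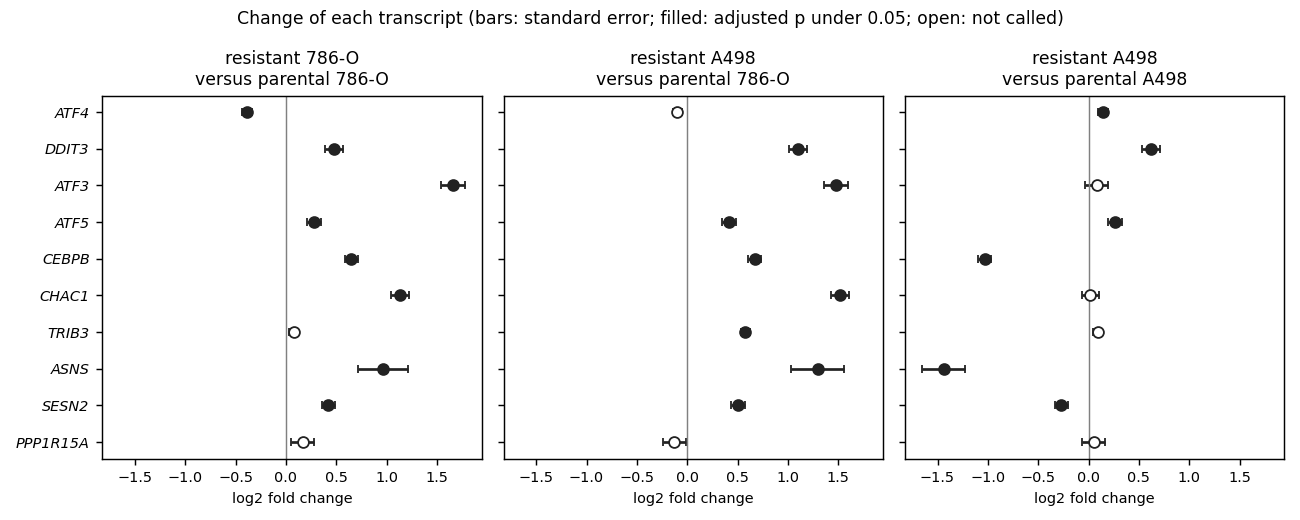
Log2 fold change of each transcript (points) with its standard error (bars) in 3 comparisons, 3 libraries a group, where filled points passed the adjusted p threshold of 0.05 and open points did not. Against 786-O, ATF3 and CHAC1 changed by more than 1 in both resistant lines, while ATF4 lay below 0, called in resistant 786-O only. Against A498, CEBPB and ASNS lay below -1.

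Against its labelled parent A498, resistant A498 gave another picture. Of the 10 genes, 3 were higher (ATF4, DDIT3 and ATF5) and 3 lower (CEBPB, ASNS and SESN2), where 72.7% of all genes were called, 36.3% higher and 36.4% lower. With the GC and length trend removed, 5 were higher and 2 lower, beside 32.3% and 40.85% of all genes. The median log2 fold change of the 10 was 0.07. The parental lines themselves differed in 8 of the 10, with ATF4 higher and 7 genes lower in 786-O than in A498, where 74.2% of all genes were called, 38.2% higher and 36.1% lower. Between the resistant lines 5 of 10 differed, 4 higher and 1 lower in resistant A498, with 46.1% of all genes called, 23.0% in each direction. With the GC and length trend removed, ATF5 (0.39), CEBPB (0.40) and SESN2 (0.33) were also called higher, and PPP1R15A (-0.085) lost its call (log2).

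The overlap of the libraries was also read. The libraries of resistant 786-O and 786-O did not overlap for 8 of the 10 genes, beside 68.9% of all genes, and those of resistant A498 and 786-O for all 10, beside 73.4%, with 8 genes above 786-O and ATF4 and PPP1R15A below it. Resistant A498 and A498 were apart for 7 genes (78.5% of all genes), the parental lines for all 10 (80.2%), and the resistant lines for 4, namely ATF4, DDIT3, CHAC1 and TRIB3 (51.7%).

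ATF4, on chromosome 22 (GRCh38, 39519695 to 39522683), fell in resistant 786-O, where 7 of the other members rose. Its level was 530.0, 509 and 519 CPM in the 786-O libraries and 409.6, 367 and 414 CPM in resistant 786-O. The A498 libraries gave 439, 442 and 439 CPM and the resistant A498 libraries 497, 472 and 486 CPM. The groups did not overlap with one another, in the order 786-O, resistant A498, A498 and resistant 786-O. The log2 fold change was -0.39 ± 0.05 (SE) in resistant 786-O against 786-O (adjusted p = 3.95e-06, edgeR), which is 1.31-fold lower. In resistant A498 it was -0.10 ± 0.05 against 786-O (adjusted p = 0.086) and 0.14 ± 0.05 against A498 (adjusted p = 0.015). Scaling by library size alone moved the median of all genes in resistant 786-O from 0.03 to 0.18, and it turned the ATF4 value of resistant A498 against 786-O to 0.053, again not called. The ATF4 fall in resistant 786-O was -0.20 and not called with the study's test on raw counts, which does not correct for library totals.

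DDIT3, the gene of CHOP (chromosome 12, 57516588 to 57521737), was highest in resistant A498. The 786-O libraries held 24.7, 21.9 and 22.3 CPM and the resistant 786-O libraries 29.4, 37.5 and 29.1 CPM. A498 gave 30.9, 34.8 and 30.9 CPM, which overlapped with resistant 786-O, and resistant A498 gave 48.3, 50.5 and 49.3 CPM, above every other library. CHOP transcripts thus rose 1.39-fold in resistant 786-O (log2 0.48 ± 0.09, adjusted p = 0.000215, edgeR), 2.15-fold in resistant A498 against 786-O (adjusted p = 5.18e-08) and 1.54-fold against A498 (adjusted p = 1.66e-05). DDIT3 was called higher in all 3 of these comparisons, as ATF5 was, but the call in resistant 786-O was lost with the study's test on CPM. DDIT3 shares 31.6% of its exon bases with genes on the opposite strand, chiefly MARS1, the methionyl-tRNA synthetase. In 4 pairs of a gene and its antisense gene, counts of the antisense gene came to between 22.8% of the gene's counts (VIM-AS1) and 293% (MIF-AS1). The study's methods name a strand-specific setting of featureCounts, the counting tool. Whether the deposited counts follow it, and how reads in shared bases were handled, was not tested. MARS1 averaged 234 CPM over the 786-O libraries and 233 CPM over those of resistant 786-O, and resistant A498 held 282 CPM, with a log2 fold change against 786-O of -0.01 (adjusted p = 0.91) and 0.27 (adjusted p = 4.96e-05). Its part in the DDIT3 values was not tested.

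ATF3, a bZIP factor that many stresses induce, showed the steepest rise in resistant 786-O (chromosome 1, 212565334 to 212620777). Its level was 11.2, 10.8 and 10.2 CPM in 786-O, and 30.4, 42.5 and 29.0 CPM in resistant 786-O. The A498 libraries held 29.5, 26.9 and 28.3 CPM and the resistant A498 libraries 30.1, 31.0 and 28.8 CPM. Parental 786-O was thus alone at a low level, and the other 3 groups overlapped with their neighbours. The rise over 786-O was 3.15-fold in resistant 786-O (log2 1.66 ± 0.12, adjusted p = 9.42e-09, edgeR) and 2.78-fold in resistant A498 (log2 1.48 ± 0.12, adjusted p = 4.97e-08). Against A498, resistant A498 differed by 0.08 ± 0.11 (adjusted p = 0.53). Replicate 2 was the highest of the resistant 786-O libraries, and every other resistant 786-O library was still above all 3 of 786-O.

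**Figure D2:**
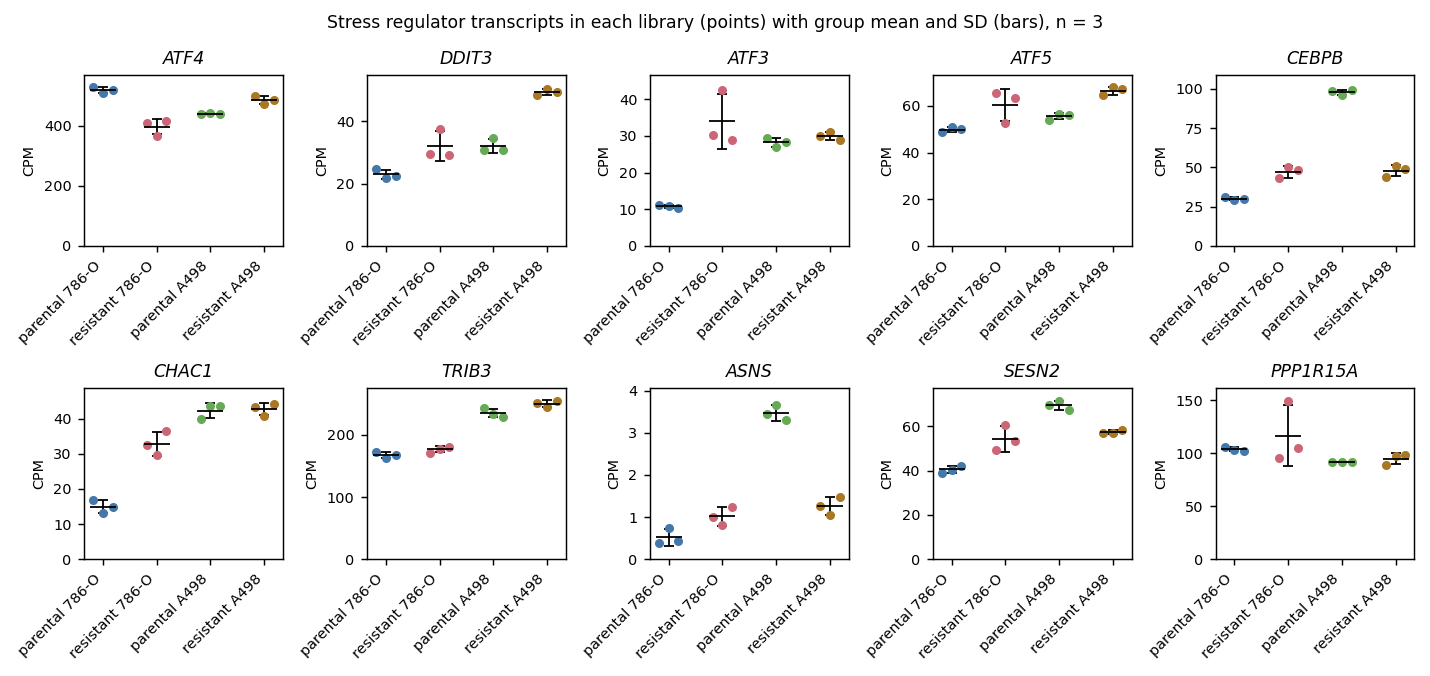
Level of each of the 10 transcripts in CPM (linear axis from 0) in the 4 groups, with each library as a point, the group mean as a line and the SD (n = 3) as bars. The 786-O libraries are the lowest for 8 genes by mean, resistant A498 has the highest DDIT3, and PPP1R15A is raised in 1 library of resistant 786-O, at 149 CPM.

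ATF5, a bZIP factor linked to mitochondrial stress (chromosome 19, 49928702 to 49933935), moved less. Its mean was 49.8 ± 1.1 CPM (SD, n = 3) in 786-O and 60.6 ± 6.8 in resistant 786-O. A498 had a mean of 55.5 ± 1.3 CPM and resistant A498 of 66.5 ± 1.8 CPM. It rose 1.22-fold in resistant 786-O (adjusted p = 0.0017, edgeR), 1.33-fold in resistant A498 against 786-O (adjusted p = 7.40e-05) and 1.20-fold against A498 (adjusted p = 0.0030). The resistant 786-O range, from 52.8 to 65.6 CPM, overlapped with A498 and resistant A498. ATF5 shares 19.5% of its exon bases with opposite-strand genes, chiefly NUP62. With the trend of fold change on GC content and gene length removed, its resistant 786-O value was 0.01 and the call was lost. That call was also lost with the study's test, both on CPM and on raw counts.

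CEBPB encodes C/EBPβ, a dimer partner of both ATF4 and CHOP (chromosome 20, 50190830 to 50192668). It marked off A498 from every other group. The A498 libraries held 98.4, 96.1 and 99.2 CPM, and the resistant A498 libraries 44.2, 50.7 and 49.2 CPM. In resistant 786-O the values were 43.1, 50.3 and 48.3 CPM, which overlapped with resistant A498, and in 786-O they were 31.4, 29.2 and 29.8 CPM. CEBPB was 1.57-fold higher in resistant 786-O (log2 0.65 ± 0.06, adjusted p = 4.15e-07, edgeR) and 1.59-fold higher in resistant A498 (adjusted p = 4.05e-07) than in 786-O, and 2.04-fold lower in resistant A498 than in A498 (adjusted p = 1.37e-09). Without the GC and length trend, the resistant 786-O value was 0.10 and not called. CEBPB-AS1, which overlaps with 12.6% of its exon bases on the opposite strand, held 2.1 CPM in 786-O and 4.7 CPM in resistant 786-O. Its level was 7.0 CPM in the A498 libraries and 5.0 CPM in resistant A498, in the same order as CEBPB, and its part in the CEBPB counts was not tested.

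Among the target genes, CHAC1 rose in both resistant lines over 786-O. CHAC1 breaks down glutathione, and it is a common marker of ATF4 and CHOP activity (chromosome 15, 40952962 to 40956512). The 786-O libraries gave 16.8, 13.2 and 14.9 CPM, and the resistant 786-O libraries 32.6, 29.6 and 36.4 CPM. A498 and resistant A498 overlapped at 39.8 to 43.5 CPM and 40.7 to 44.1 CPM. The resistant 786-O libraries lay wholly between 786-O and these. CHAC1 was 2.20-fold higher in resistant 786-O (log2 1.13 ± 0.09, adjusted p = 2.58e-08, edgeR) and 2.86-fold higher in resistant A498 (log2 1.51 ± 0.09, adjusted p = 1.48e-09) than in 786-O. Its difference between resistant A498 and A498 was 0.02 ± 0.09 (adjusted p = 0.87), and it was called higher there, at 0.24, with the GC and length trend removed.

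TRIB3, a pseudokinase that restrains ATF4 and AKT, separated the libraries by the line on their label (chromosome 20, 362835 to 397559). The values were 173, 162 and 168 CPM in 786-O and 172, 178 and 181 CPM in resistant 786-O. They were 243, 234 and 229 CPM in A498 and 252, 245 and 255 CPM in resistant A498. 786-O and resistant 786-O overlapped, and both lay below every A498 and resistant A498 library. The change in resistant 786-O was 0.08 ± 0.04 (adjusted p = 0.13, edgeR). Resistant A498 was 1.49-fold above 786-O (adjusted p = 2.12e-08) and 1.42-fold above resistant 786-O (adjusted p = 5.19e-07). TRIB3 in resistant 786-O was sensitive to scaling: it was called at 0.22 with library size alone and at -0.27 without the GC and length trend.

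SESN2, a sestrin that restrains mTORC1 when leucine is scarce (chromosome 1, 28259518 to 28282491), was 40.6 ± 1.6 CPM (SD, n = 3) in 786-O and 54.4 ± 5.9 in resistant 786-O. The A498 libraries averaged 69.5 ± 1.9 CPM and those of resistant A498 57.6 ± 0.8 CPM. It rose 1.34-fold in resistant 786-O (adjusted p = 4.44e-05, edgeR) and 1.42-fold in resistant A498 (adjusted p = 9.49e-06) over 786-O, and was 1.21-fold lower in resistant A498 than in A498 (adjusted p = 0.0020). The resistant lines overlapped and lay between their labelled parents. Without the GC and length trend the resistant 786-O value was 0.15 and not called (adjusted p = 0.054, range over the alternatives 1.19e-08 to 0.056, or to 1 where a log2 fold change over 1 was required). The fall against A498 was then -0.078 and not called either.

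ASNS, asparagine synthetase (chromosome 7, 97851677 to 97872542), was barely counted. Its raw counts were 15, 29 and 19 in 786-O, 49, 35 and 57 in resistant 786-O, 119, 79 and 90 in A498, and 34, 22 and 38 in resistant A498. In CPM these were means of 0.52, 1.02, 3.48 and 1.27. ASNS was called 1.96-fold higher in resistant 786-O (log2 0.97 ± 0.25, adjusted p = 0.0030, edgeR) and 2.45-fold higher in resistant A498 (adjusted p = 0.000541) than in 786-O, and 2.71-fold lower in resistant A498 than in A498 (adjusted p = 2.21e-05). With every library thinned to the smallest total, the resistant 786-O value was 0.49 and the call was lost (adjusted p = 0.25, range over the alternatives 0.000146 to 0.25, or to 1 where a log2 fold change over 1 was required). Of its 4896 exon bases, 49.3% are shared on the same strand with an unnamed lncRNA, ENSG00000284707, which held between 2 and 77 counts per library. Reads that fall in shared exons are set aside under the default of featureCounts, so the ASNS counts may cover a part of its transcript only, which was not tested.

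PPP1R15A (GADD34; chromosome 19, 48872212 to 48876059), the feedback arm of the response, was not called against a parental group. The 786-O libraries gave 106, 103 and 102 CPM and the resistant 786-O libraries 95.4, 149 and 105 CPM. A498 gave 91.9, 91.3 and 91.6 CPM and resistant A498 89.2, 97.0 and 98.2 CPM. The highest value of all 12 came from replicate 2 of resistant 786-O, the library that stood apart. The log2 fold change was 0.17 ± 0.11 in resistant 786-O (adjusted p = 0.20, edgeR), and -0.053 without that library. It was called higher with library size alone (0.31), with thinning (0.27) and with no filter (0.16). Between the resistant lines PPP1R15A was called lower in resistant A498 at -0.30 (adjusted p = 0.048). Without replicate 2 of resistant 786-O the difference was -0.078 (adjusted p = 0.15, range over the alternatives 2.27e-05 to 0.61, or to 1 where a log2 fold change over 1 was required), and the call was also lost without any single library of the other groups.

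Per kilobase of exon, which allows for gene length, the order of the members was wide and much alike between groups. ATF4 led with group means from 152 to 199 CPM per kb, followed by TRIB3 with 51.0 to 76.1 CPM per kb. CEBPB, PPP1R15A, DDIT3, ATF5, CHAC1 and SESN2 lay in a band below these. ATF3 followed with 2.69 to 8.50 CPM per kb, and ASNS was last with 0.11 to 0.71 CPM per kb. Exon length took in bases shared with other genes, in which reads may have been set aside. These are 49.3% of ASNS on the same strand. On the opposite strand they are 31.6% of DDIT3, 19.5% of ATF5 and 12.6% of CEBPB. Their part in the order was not tested.

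**Figure D3:**
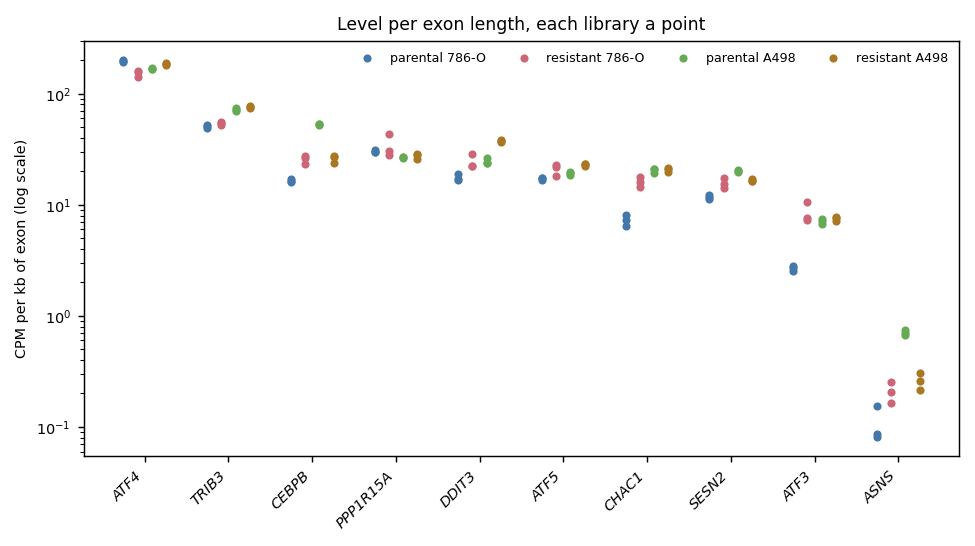
Level of each transcript per kilobase of exon (CPM per kb, log axis), with each of the 12 libraries as a point coloured by group. ATF4 is at the top with group means from 152 to 199, and ASNS at the bottom with 0.11 to 0.71. Exon length includes bases shared with other genes, 49.3% on the same strand for ASNS, and their part in its place was not tested.

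The genes around the 10 were read from lists of pathway members. Most genes on the list of eIF2 kinases and eIF2 machinery were lower in both resistant lines than in 786-O. The list holds the kinases and also phosphatase subunits that act against them, so it mixes opposite arms. In resistant 786-O, 20 of 24 fell and 2 rose relative to 786-O, and the median log2 fold change was -0.38. In resistant A498, 17 fell and 3 rose against 786-O with a median of -0.42, and 13 fell and 7 rose against A498 with a median of -0.15. EIF2AK2 (PKR), the kinase that senses double-stranded RNA, held 92.8 ± 5.5 CPM in 786-O. It rose to 196.9 ± 7.3 in resistant 786-O and 302 ± 3.7 in resistant A498, a log2 fold change of 1.09 and 1.70 (adjusted p = 3.23e-10 and 3.19e-12, edgeR). The other kinases, named after their values were seen, were divided. Against 786-O, EIF2AK1 rose by 0.21 in resistant 786-O and 0.43 in resistant A498 (log2). EIF2AK3 fell by 0.39 and 0.41, and EIF2AK4 by 0.44 and 0.59. PPP1CC and PPP1CB, catalytic subunits of the phosphatase that PPP1R15A guides, fell in resistant 786-O by 1.24 and 1.17 on the log2 scale. EIF2B3 and EIF2B1, subunits of the exchange factor that phosphorylated eIF2 inhibits, fell in resistant A498 by 0.79 and 0.76 relative to 786-O. Against A498, the log2 fold change was 0.12 for EIF2B3, not called, and -0.60 for EIF2B1, called lower. These lists were written with earlier results of the data known, and their counts are a description. Over all genes, 35.0% were called higher and 33.5% lower in resistant 786-O against 786-O. The shares in resistant A498 were 31.6% and 32.1% against 786-O, and 36.3% and 36.4% against A498. The counts of every list stand beside these shares.

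Genes of amino acid synthesis leaned one way against 786-O and the other against A498 in resistant A498. Of 13 genes, 9 rose and 3 fell in resistant A498 relative to 786-O, beside 31.6% and 32.1% of all genes. In resistant 786-O 6 rose and 5 fell, beside 35.0% and 33.5%. Against its labelled parent A498, 4 rose and 7 fell in resistant A498, and their median was -0.17 (log2). PHGDH, the first step of serine synthesis and named after its values were seen, went from 381 ± 10.7 CPM in A498 to 1.41 ± 0.36 CPM in resistant A498, and 786-O held 0.20 CPM. PSPH fell by 0.85 against A498, while CTH rose by 0.42. Relative to 786-O, CBS, which makes cystathionine, rose by 1.57 in resistant 786-O and by 1.87 in resistant A498 (log2), and CTH, the next enzyme on the way to cysteine, rose by 1.63 in resistant A498 (adjusted p = 7.26e-11, edgeR). PSPH, the last step of serine synthesis, was 45.5 ± 0.7 CPM in 786-O and 102 ± 1.4 CPM in resistant A498. In resistant 786-O, PCK2, the mitochondrial PEP carboxykinase, rose by 0.84 and ALDH18A1, of proline synthesis, fell by 0.83.

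Among amino acid transporters, 6 of 9 were higher and 2 lower in resistant 786-O, and 7 higher and 1 lower in resistant A498, relative to 786-O. Against A498, 4 were higher and 2 lower. SLC7A5 (LAT1), which imports leucine and other large neutral amino acids, averaged 1667 ± 25.7 CPM over the 786-O libraries and 3164 ± 50.1 CPM over those of resistant A498 (log2 0.92, adjusted p = 1.79e-07, edgeR). Relative to 786-O, SLC43A1, another carrier of this class, rose by 1.88 in resistant 786-O and by 2.28 in resistant A498. SLC6A9, a glycine carrier, fell by 0.89 and 2.25, and SLC38A2 fell by 0.74 in resistant 786-O. Without the GC and length trend, 3 transporters were higher and 4 lower in resistant 786-O.

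The cytosolic aminoacyl-tRNA synthetases, many of which ATF4 can induce, did not move as a block. Relative to 786-O, 6 of 20 were higher and 12 lower in resistant 786-O, beside 35.0% and 33.5% of all genes. These became 7 and 6 with scaling by library size alone, beside 42.9% and 25.8%. In resistant A498 9 were higher and 8 lower, beside 31.6% and 32.1%. Against A498, 7 were higher and 9 lower. WARS1, for tryptophan, rose from 104 ± 1.6 CPM in 786-O to 201 ± 30.2 in resistant 786-O and 283 ± 3.2 in resistant A498. FARSB fell by 0.98 in resistant 786-O and fell by 1.14 in resistant A498 (log2), and KARS1 by 0.62 and by 0.74.

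Further outputs of ATF4 and CHOP were more often higher than lower against 786-O. In resistant 786-O 14 of 24 were higher and 5 lower, and 13 and 8 without replicate 2, while in resistant A498 12 were higher and 4 lower. Against A498, 11 were higher and 12 lower in resistant A498 (median -0.25 on the log2 scale), and NUPR1 and GDF15 fell there by 1.42 and 1.55. NUPR1, a stress-induced chromatin regulator, rose from 3.36 ± 0.19 CPM in 786-O to 29.7 ± 8.8 in resistant 786-O and 55.1 ± 2.8 in resistant A498 (log2 3.14 and 4.03, adjusted p = 5.08e-10 and 4.00e-11, edgeR). GDF15, the secreted stress cytokine, was 38.2 ± 3.0 CPM in 786-O and 202 ± 94.6 in resistant 786-O, a log2 change of 2.40 ± 0.22 with a wide spread among libraries. KLHL24 rose in resistant A498 by 3.41 over 786-O and by 2.12 over A498 (log2). STC2, a secreted glycoprotein that ATF4 can induce, went the other way, from 268 ± 6.7 CPM in 786-O to 37.7 ± 9.8 in resistant 786-O and 27.5 ± 1.6 in resistant A498.

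The ATF6 and XBP1 arms of the unfolded protein response, which raise chaperones in the endoplasmic reticulum, were divided. Relative to 786-O, in resistant 786-O 9 of 18 genes were lower and 6 higher, and in resistant A498 7 were lower and 4 higher. With library size alone these became 7 and 7 in each. The 7 lower of 18 in resistant A498 stand beside 32.1% lower over all genes. Against A498, 8 were higher and 6 lower in resistant A498, and 4 and 9 with the GC and length trend removed. HSPA5 (BiP), the main chaperone of the endoplasmic reticulum, was 1208 ± 26.7 CPM in 786-O and 693 ± 19.5 in resistant A498 (log2 -0.80, adjusted p = 2.73e-06, edgeR). Relative to 786-O, SDF2L1 fell by 0.58 in resistant 786-O and by 1.20 in resistant A498, where MANF fell by 0.87. HSP90B1 and PDIA4 fell by 0.60 and 0.59 in resistant 786-O. Against A498, the log2 fold change in resistant A498 was -0.32 for HSPA5, -0.49 for SDF2L1 and 0.29 for MANF, which was called higher.

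The bZIP partners and relatives of ATF4 and CHOP were divided. Relative to 786-O, 11 of 28 were higher and 10 lower in resistant 786-O, beside 35.0% and 33.5% of all genes. In resistant A498 12 were higher and 11 lower, beside 31.6% and 32.1%. Against A498, 8 were higher and 15 lower in resistant A498, beside 36.3% and 36.4%. Relative to 786-O, CREBRF rose by 1.36 and 2.28, and JDP2, a repressor that pairs with ATF3 and JUN proteins, rose by 1.19 and 1.67. NFE2L1, a regulator of proteasome genes, went from 304 ± 5.8 CPM in 786-O to 650.4 ± 26.3 CPM in resistant 786-O. MAFF fell by 1.09 in resistant A498 relative to 786-O. Of 10 paralogs of the members, 6 rose and 3 fell in resistant 786-O, and 7 rose and 1 fell in resistant A498, relative to 786-O. Against A498 the paralogs went the other way, with 2 higher and 6 lower and a median of -0.36 (log2). Relative to 786-O, CEBPD rose by 0.58 in resistant 786-O, where TRIB1, a relative of TRIB3, fell by 0.75. CEBPG, a frequent partner of ATF4, rose by 0.63 over 786-O in resistant A498, where CHAC2 fell by 0.64. Against A498, CEBPG was called lower in resistant A498, with a log2 fold change of -0.19.

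**Figure D4:**
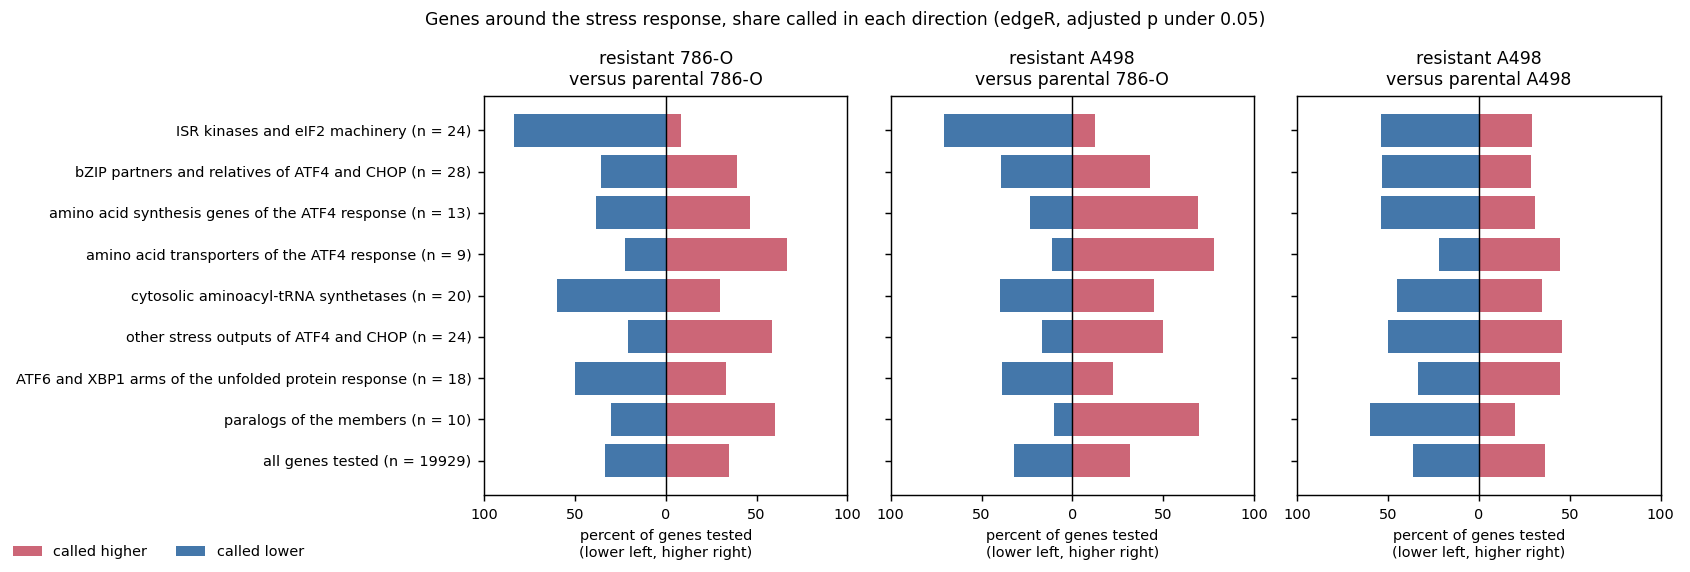
Percent of the tested genes of each list called higher (right) or lower (left) in resistant 786-O against 786-O and in resistant A498 against 786-O and against A498 (edgeR, adjusted p under 0.05), with all 19929 genes as the bottom bar. The list of kinases and eIF2 machinery leans to lower in each panel, with 20, 17 and 13 of 24 genes. Paralogs lean to higher against 786-O and, with 6 of 10 lower, to lower against A498.

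The genes whose pattern over the 12 libraries was most like that of ATF4, by Pearson's r of log2 CPM among 11877 genes, were R3HDM1 (0.985), PAPOLA (0.983) and SEC23A (0.980). Those most like DDIT3 were TMEM97 (0.985), RMND1 (0.976) and ITM2B (0.975). The 12 points fall into 4 groups, so these values describe the order of group levels.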

How the data were processed

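mRNA libraries (TruSeq Stranded mRNA) of 4 groups with 3 replicates each were used. The authors deposited raw gene counts, without normalization. Per the labels and the study's methods, they used bcl2fastq 2.19.0, Trimmomatic 0.36.6, HISAT2 2.1.0 on GRCh38/hg38 and featureCounts 1.6.3 with a GENCODE annotation. Groups came from the sample titles. In R 4.3.3, edgeR 4.0.16 was used with filterByExpr, TMM and a prior count of 0.125. All 12 libraries entered 1 quasi-likelihood fit with a mean for each of the 4 groups. Benjamini-Hochberg adjustment covered the 19929 genes that passed, with a threshold of 0.05. SE was the log2 fold change divided by the square root of F. The code was tested on simulated data. Totals ran from 40845091 to 47972092 in 786-O and from 42643735 to 46888482 in resistant 786-O. They ran from 21686648 to 34951585 in A498 and from 20042519 to 25831163 in resistant A498, so levels rest on fewer reads in the A498 groups.

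The 10 members, the gene lists and the comparisons were chosen with earlier results of these data known. Genes named beside the members were, from each list, the 3 with the largest absolute log2 fold change among called genes of at least 5 CPM in each resistant line against 786-O, and the 3 most like ATF4 and DDIT3. Alternatives were library size scaling, other filters on low counts (none, or 10 counts in each library), DESeq2 1.42.0, removal of the GC and length trend, thinning, the compared groups alone, prior count 2, a log2 fold change over 1, a replicate block, the test named in the study's methods, and each library left out. The study's test is a two-sided Welch t-test, called here at an unadjusted p under 0.05. Ranges of adjusted p over the alternatives take in its unadjusted p-values. List counts under other settings were added after seeing the data. Gene positions and exon lengths were from GENCODE v44. Deviations of same-numbered libraries were weakly correlated (from -0.18 to 0.098), and replicate numbers were treated as names. Between 786-O and resistant A498, the best match was the same-numbered library each time, at 0.022 to 0.070. Such weak values cannot decide whether libraries were paired.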

Additional observations from a re-analysis of the deposited data

Results flagged for a closer look

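The change in resistant A498 over A498 was compared with the change in resistant 786-O over 786-O by the interaction contrast of the edgeR model, in which 68.3% of all genes passed, 33.9% higher and 34.4% lower. It was called for 6 of the 10 genes. ASNS differed most, by -2.41 ± 0.33 (SE) on the log2 scale (adjusted p = 1.09e-05), on low counts. CEBPB differed by -1.68 ± 0.09 (adjusted p = 4.33e-10), ATF3 by -1.57 ± 0.16 (adjusted p = 5.55e-07), CHAC1 by -1.12 ± 0.12 (adjusted p = 9.72e-07) and SESN2 by -0.69 ± 0.09 (adjusted p = 1.00e-05). All 5 rose in resistant 786-O, and in resistant A498 they either fell or were not called against A498. ATF4 differed the other way, by 0.53 ± 0.07 (adjusted p = 5.35e-06). The contrast takes A498 as the parent of resistant A498, while those libraries stood nearer to 786-O, and the part this plays in the differences was not tested.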

How the results depend on the processing

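Of 1250 values of a gene under an alternative, 1107 kept their direction and side of the threshold, 59 lost and 47 gained a call, and 37 changed sign. Requiring a log2 fold change over 1 left 2 members in resistant 786-O versus 786-O, 2 in resistant A498 versus A498, 4 in resistant A498 versus 786-O, 4 in 786-O versus A498 and 0 between the resistant lines, where no member reached that size. The study's test on raw counts, which does not correct for library totals, gave 1 in resistant A498 versus A498, 5 in resistant A498 versus 786-O, 4 in 786-O versus A498 and 8 between the resistant lines. In resistant 786-O versus 786-O the raw count test lost ATF4 (-0.20 on the log2 scale) and ATF5 (0.47). On CPM, the study's test called 6 in resistant 786-O versus 786-O and lost DDIT3 and ATF5 there. Leaving out each library gave, in the order above, 8 to 10, 6 to 7, 8 to 10, 8 to 10 and 4 to 6, and 6 to 7 for the difference of changes. The replicate block changed no count of members called (8, 6, 8, 8, 5 and 6). Shares of all genes called under these settings are not given here, so the counts show only how the member calls moved.

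Signs turned as follows (log2). Library size alone gave ATF4 0.053 and PPP1R15A 0.023 in resistant A498 versus 786-O. A minimum of 10 counts gave CHAC1 -0.0077 (resistant A498 versus A498), and thinning gave CEBPB -0.0032 (between the resistant lines). Removing the GC and length trend gave TRIB3 -0.27 and PPP1R15A -0.049 (resistant 786-O versus 786-O), ATF3 -0.055 (resistant A498 versus A498) and ATF5 0.063 (786-O versus A498), and with the replicate block -0.27, -0.062, -0.059 and 0.064. That removal left 4 members higher and 2 lower in resistant 786-O versus 786-O, beside 31.9% and 35.9% of all genes. The raw count test gave ATF4 -0.039, ATF3 -0.11, CHAC1 -0.15, TRIB3 -0.096 and PPP1R15A -0.14 in resistant A498 versus A498, and ATF5 -0.32, CEBPB -0.067, TRIB3 -0.15 and SESN2 -0.23 in resistant A498 versus 786-O. It gave DDIT3 0.072, ATF5 0.40 and TRIB3 0.056 in 786-O versus A498, and ATF4 -0.63, DDIT3 -0.29, ATF5 -0.79, CEBPB -0.90, CHAC1 -0.54, TRIB3 -0.41, ASNS -0.58 and SESN2 -0.83 between the resistant lines. Over the libraries left out, CEBPB ran from -0.034 to 0.088 and ATF3 from -0.27 to 0.012 between the resistant lines, CHAC1 from -0.024 to 0.082 in resistant A498 versus A498, and PPP1R15A from -0.053 to 0.32 in resistant 786-O versus 786-O, called at 0.32 without replicate 1 of resistant 786-O. Without that library TRIB3 was also called (0.12) in resistant 786-O. Without replicate 2 of resistant 786-O, ATF5 (-0.14) and PPP1R15A (0.19) were called in 786-O versus A498, and SESN2 (0.17) between the resistant lines. TRIB3 in resistant A498 versus A498 was called (0.096 to 0.14) without any one replicate of resistant 786-O or without replicate 2 of resistant A498, and also with library size alone (0.16), the GC and length trend removed (0.30), the compared groups alone (0.084) and the study's test on CPM (0.090). Apart from the raw count construction, the causes were not tested. ASNS had the fewest counts, 15 to 119 a library.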
